A study of Mus musculus with 2 samples.

Results

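The cytochromes P450 of families 1 to 3 were described in liver RNA of CREBH knockout (KO) and wild-type (WT) mice that were fasted or fed. Members were the genes whose symbols start with Cyp1a, Cyp1b, Cyp2 followed by a letter, or Cyp3a. The array carried named probes for 57 of them, 73 probes in all, out of 20284 genes with named probes. Another 5 protein-coding members (Cyp2a5, Cyp2c40, Cyp2c69, Cyp2j12 and Cyp3a41a) had no probe under their own name and were not analysed here. Cyp2d13 and Cyp2d37-ps are pseudogenes that fall under the same naming, and Cyp2c23 is the gene also known as Cyp2c44.

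The 4 groups were KO mice fasted for 24 h, WT mice fasted for 24 h, KO mice fed ad lib and WT mice fed ad lib. All were of the C57B6J strain, and the KO mice were null for CREBH, a hepatocyte transcription factor encoded by Creb3l3 that is active in fasting. Total liver RNA was pooled within each group, and each of the 4 pools was measured once. KO RNA carried Cy5 and WT RNA carried Cy3 on both 2-colour arrays, 1 array for fasted and 1 for fed mice, with no dye swap. The number of mice in a pool, their sex and their age are not given in the sources used here, nor is the cell type in which the null allele acts. With 1 pool per group no test was possible, no p-value is given, and the number of arrays limits the precision. A gene was called higher or lower where 2 pools were at least 2-fold apart, a log2 difference of 1 or more. In liver RNA, fewer cells of a type and less RNA per cell cannot be told apart, and a dye effect and a genotype effect of a single probe cannot be told apart either.

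Families 1 to 3 hold the haem enzymes of the endoplasmic reticulum that oxidise drugs, pollutants, steroids and fatty acids, with electrons handed over by P450 oxidoreductase (Por). Liver makes more of them than most organs do. Their transcription is known to be set by ligand-activated receptors: the aryl hydrocarbon receptor (Ahr) for Cyp1a genes, the constitutive androstane receptor (CAR, gene Nr1i3) for Cyp2b and many Cyp2c genes, and the pregnane X receptor (PXR, gene Nr1i2) for Cyp3a genes. In mice, several members are also known to be made mainly in 1 sex or in 1 zone of the liver lobule.

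Creb3l3 itself was lower in KO than in WT liver on both arrays, at a log2 ratio of -2.07 in fasted and -0.88 in fed liver. Its probe was nevertheless well above background in all 4 pools, with signals of 12.95 in KO fasted and 15.03 in WT fasted liver, and of 13.12 in KO fed and 14.00 in WT fed liver. No source used here says which exons the null allele lacks or where the probe lies, so its signal is a limited check of the genotype labels. Between 39.9% and 45.9% of 59305 gene spots were well above background in a channel. All 8 hepatocyte markers were well above background in the 4 pools and none of 4 kidney tubule markers was in any. Intestinal markers summed to a log2 signal of 12.03 in KO fasted and 14.43 in WT fasted liver, and to 12.50 in KO fed and 13.09 in WT fed liver. That difference lay in Fabp2, since Lgals4 was under 2-fold apart between genotypes and Vil1 and Cdx2 were not well above background in any pool. The 7 Kupffer cell markers with a probe summed to 13.96 in KO fasted and 13.89 in WT fasted liver, and to 13.50 in KO fed and 13.95 in WT fed liver. The part of these markers in the P450 values was not tested.

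Of the 57 members, 44 were well above background in all 4 pools and were measured in every comparison. Probes of 10 members were not well above background in any pool, namely those of Cyp1a1, Cyp2ab1, Cyp2b13, Cyp2b19, Cyp2b23, Cyp2c65, Cyp2c66, Cyp2j11, Cyp2w1 and Cyp3a44. Cyp1b1 was well above background only in the fasted pools, and Cyp2a22 and Cyp2b9 only in KO fasted liver. Values below are normalized log2 signals of the brightest probe of a gene, and log2 differences between pools for that probe. Error after a difference is the error the scanner software gives for 1 spot, on the log2 scale. Probes printed 10 times had a median SD between spots of 0.08 for the KO over WT ratio on the fasted array and 0.09 on the fed array, of 0.17 for fasted over fed in either genotype, and of 0.12 for the difference between the 2 ratios. The Cyp2c29 probe was among them, with an SD of 0.04 on the fasted and 0.04 on the fed array over 10 spots. Different probes of 1 member had a median range of 0.51 for fasted over fed in KO and 0.34 in WT liver. In KO liver that range was under 0.5 for 5 of 11 genes. The median range was 0.18 for the KO over WT ratio on the fasted array and 0.11 on the fed array. For the difference between the 2 ratios it was 0.25. None of this spread holds differences between mice or labelling reactions. Probes of near-identical P450 paralogs cannot be told apart with certainty.

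The clearest genotype difference lay in the Cyp3a subfamily and in fasted liver. All 7 measured Cyp3a genes had lower signals in KO than in WT fasted liver, where 47.3% of all measured genes did, whereas 6 of 7 did with arrays centred on the measured genes in place of loess and 4 of 7 with arrays centred on all spots. Their median log2 ratio was -0.97, and 3 of them fell by at least 2-fold, Cyp3a59, Cyp3a16 and Cyp3a11. In fed liver none of the 7 was 2-fold apart and their median was -0.17. Over all 45 members measured on the fasted array, 4 were at least 2-fold lower and 0 were higher, where 0.791% of 12263 measured genes were 2-fold apart, 0.432% lower and 0.359% higher. In fed liver 0 of 44 members were at least 2-fold apart, where 0.554% of 11374 genes were, 0.158% higher and 0.396% lower. The median over members was -0.14 in fasted and -0.11 in fed liver, against 0.01 and 0.01 over all measured genes. That direction did not hold with arrays centred on the measured genes, where the median over members was above 0 on both arrays.

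**Figure D1:**
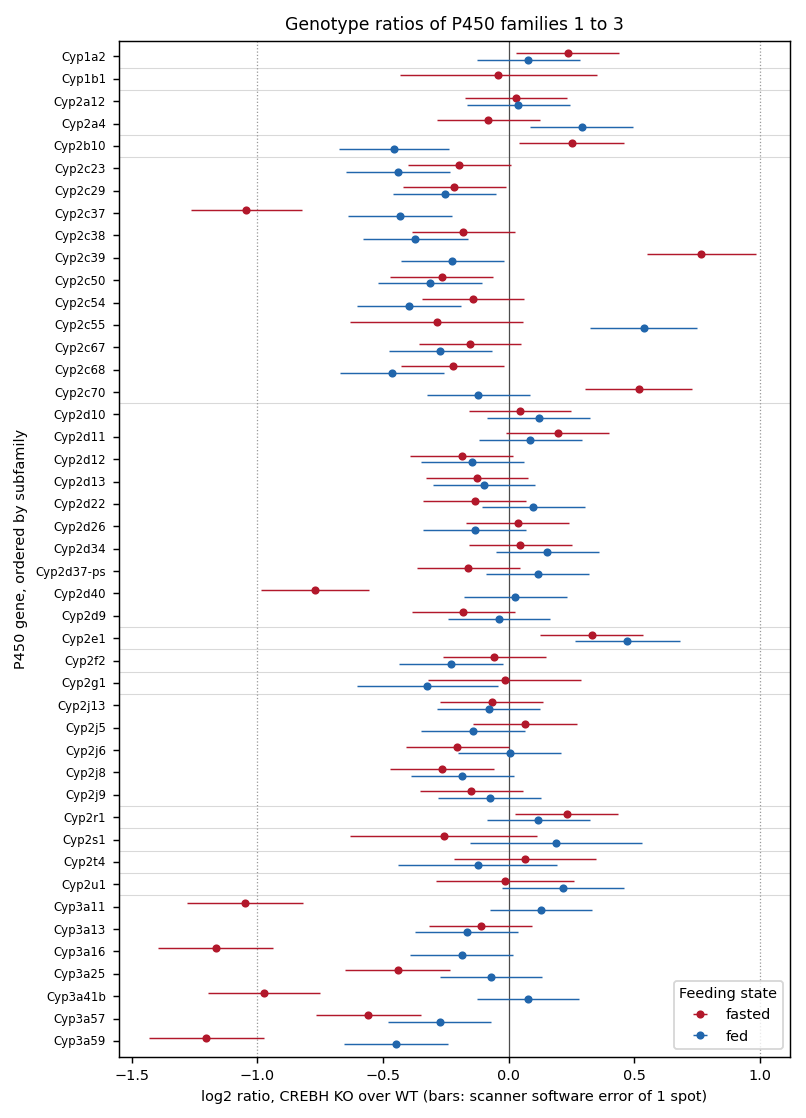
Each row is a P450 gene measured on the fasted array, ordered by subfamily, and points give its log2 ratio of CREBH KO over WT in fasted (red) and fed (blue) liver, with the scanner software's error of 1 spot as bars. Dotted lines mark 2-fold; on the fasted array Cyp3a59, Cyp3a16, Cyp3a11 and Cyp2c37 lie beyond the lower one, Cyp3a41b lies just inside it at -0.97, and no blue point passes either line.

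Cyp3a11, the main PXR-inducible drug oxidase of mouse liver, had a signal of 14.45 in KO fasted and 15.50 in WT fasted liver, and of 15.83 in KO fed and 15.70 in WT fed liver. KO fasted liver was thus the low pool and the other 3 lay close together. Its log2 ratio of KO over WT was -1.05 ± 0.23 in fasted liver, 2.07-fold lower, and 0.13 ± 0.20 in fed liver. A further Cyp3a11 probe read -1.19 in fasted and -0.16 in fed liver.

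Cyp3a59 had the lowest KO over WT ratio of all members in fasted liver, -1.20 ± 0.23, or 2.30-fold lower. The signal was 12.28 in KO fasted and 13.48 in WT fasted liver, and 13.18 in KO fed and 13.62 in WT fed liver. The fed ratio was -0.45 ± 0.21. The dimmer Cyp3a59 probe was at -1.21 in fasted and 0.12 in fed liver, so its probes lay close together in the fasted and apart in the fed comparison.

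Cyp3a16, known in mice as a form of the fetal and newborn liver, had a signal of 11.82 in KO fasted and 12.99 in WT fasted liver, and of 12.99 in KO fed and 13.18 in WT fed liver. Its ratio was -1.17 ± 0.23 in fasted liver, 2.24-fold lower, and -0.19 ± 0.20 in fed liver. Cyp3a41b, a female-biased steroid hydroxylase in mice, read 9.53 in KO fasted and 10.50 in WT fasted liver, and 10.92 in KO fed and 10.84 in WT fed liver. As for Cyp3a11, KO fasted liver was the lowest pool for both genes. The fasted ratio of Cyp3a41b, -0.97 ± 0.22, lay just short of 2-fold, and its fed ratio was 0.08 ± 0.20.

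The remaining measured Cyp3a genes were under 2-fold apart. Cyp3a57 read 12.18 in KO fasted and 12.74 in WT fasted liver, and 12.14 in KO fed and 12.41 in WT fed liver, with ratios of -0.56 ± 0.21 in fasted and -0.27 ± 0.21 in fed liver. Cyp3a25 read 13.29 in KO fasted and 13.73 in WT fasted liver, and 13.41 in KO fed and 13.48 in WT fed liver, with ratios of -0.44 ± 0.21 and -0.07 ± 0.20. Cyp3a13, the form known for its expression in mouse intestine, had the ratio nearest 0 in fasted liver, -0.11 ± 0.20, with signals of 11.10 in KO fasted and 11.21 in WT fasted liver and of 10.38 in KO fed and 10.55 in WT fed liver. Cyp3a44, a female-biased form, was not well above background in any pool.

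**Figure D2:**
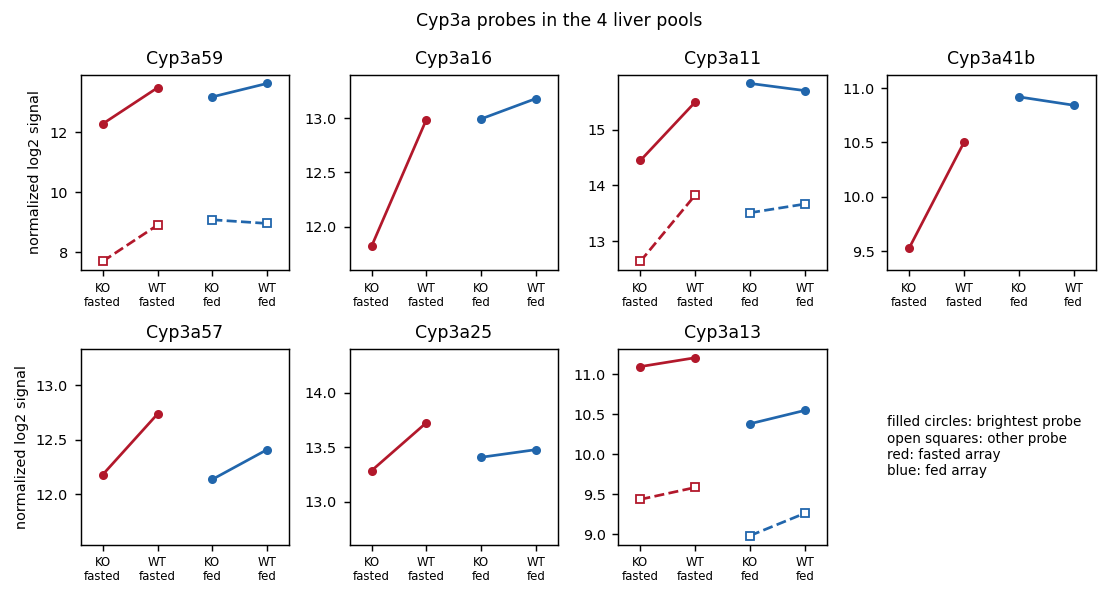
Each panel is a measured Cyp3a gene and shows normalized log2 signals (vertical axis, own scale in each panel) in KO fasted, WT fasted, KO fed and WT fed liver pools, left to right, with pools of 1 array joined. Filled circles are the brightest probe and open squares the other probe of a gene. In the panels of Cyp3a59, Cyp3a16, Cyp3a11, Cyp3a41b and, by a smaller margin, Cyp3a25 the KO fasted pool is the lowest. In that of Cyp3a13 both fasted pools lie above both fed pools.

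The measured Cyp3a genes other than Cyp3a13 lie in 1 cluster on chromosome 5, in the order Cyp3a57, Cyp3a16, Cyp3a41b, Cyp3a11, Cyp3a25 and Cyp3a59, with Cyp3a13 apart on the same chromosome. The genes with the lowest fasted ratios were not all neighbours, since Cyp3a25 lies between Cyp3a11 and Cyp3a59. Because these genes moved to different degrees, the 250 bases upstream of the RefSeq start of each are shown, from the lowest to the highest fasted ratio. Capitals mark AGGTCA, the half-site that nuclear receptors bind, and AAAGTCC, a core of sites of the hepatocyte receptor HNF4, on either strand; the 2 motifs overlap in none of these windows. AAAGTCC was added after the windows had been seen.
Cyp3a59: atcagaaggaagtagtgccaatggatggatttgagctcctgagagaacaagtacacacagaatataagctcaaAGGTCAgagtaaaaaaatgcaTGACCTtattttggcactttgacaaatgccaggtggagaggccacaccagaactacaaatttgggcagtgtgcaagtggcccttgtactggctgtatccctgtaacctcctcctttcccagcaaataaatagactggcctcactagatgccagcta
Cyp3a16: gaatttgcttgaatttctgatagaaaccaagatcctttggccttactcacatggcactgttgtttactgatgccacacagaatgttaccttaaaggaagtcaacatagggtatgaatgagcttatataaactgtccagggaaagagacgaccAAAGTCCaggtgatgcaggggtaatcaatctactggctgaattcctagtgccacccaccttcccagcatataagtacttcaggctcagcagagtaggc
Cyp3a11: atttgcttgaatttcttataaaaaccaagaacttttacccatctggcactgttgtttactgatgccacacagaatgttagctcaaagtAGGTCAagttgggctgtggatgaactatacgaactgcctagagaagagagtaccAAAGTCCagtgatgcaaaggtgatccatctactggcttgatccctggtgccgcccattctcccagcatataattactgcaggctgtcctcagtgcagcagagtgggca
Cyp3a41b: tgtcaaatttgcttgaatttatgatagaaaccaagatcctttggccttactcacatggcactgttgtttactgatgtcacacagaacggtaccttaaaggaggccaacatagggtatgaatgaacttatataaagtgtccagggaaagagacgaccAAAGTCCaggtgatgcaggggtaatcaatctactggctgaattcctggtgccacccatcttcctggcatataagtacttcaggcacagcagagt
Cyp3a57: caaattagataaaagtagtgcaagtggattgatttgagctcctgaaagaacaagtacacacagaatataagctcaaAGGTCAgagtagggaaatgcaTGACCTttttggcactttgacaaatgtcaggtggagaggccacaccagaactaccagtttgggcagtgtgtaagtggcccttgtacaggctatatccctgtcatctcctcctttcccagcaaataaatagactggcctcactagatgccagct
Cyp3a25: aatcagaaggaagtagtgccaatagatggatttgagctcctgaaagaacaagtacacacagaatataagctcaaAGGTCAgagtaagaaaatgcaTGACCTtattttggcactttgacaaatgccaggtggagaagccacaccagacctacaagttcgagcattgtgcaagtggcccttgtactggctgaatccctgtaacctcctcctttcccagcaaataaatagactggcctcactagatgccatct
Cyp3a13: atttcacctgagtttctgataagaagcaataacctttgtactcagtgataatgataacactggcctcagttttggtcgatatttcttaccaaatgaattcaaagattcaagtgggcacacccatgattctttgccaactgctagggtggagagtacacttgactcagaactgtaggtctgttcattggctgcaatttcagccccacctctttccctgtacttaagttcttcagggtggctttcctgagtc
The windows are from the RefSeq promoter table of build GRCm38.p6, with Cyp3a59 at chr5:146079008-146079257 (plus strand), Cyp3a16 at chr5:145469724-145469973 (minus strand), Cyp3a11 at chr5:145879855-145880104 (minus strand), Cyp3a41b at chr5:145584731-145584980 (minus strand), Cyp3a57 at chr5:145345019-145345268 (plus strand), Cyp3a25 at chr5:146009619-146009868 (minus strand) and Cyp3a13 at chr5:137921620-137921869 (minus strand). For Cyp3a25 the table holds another entry that starts 1 base away, and the first was used. The promoters fell into a pair of groups with Cyp3a13 apart. Those of Cyp3a59, Cyp3a57 and Cyp3a25 were 88.9% to 94.8% identical in pairwise alignment, each with 2 copies of AGGTCA on opposite strands. Those of Cyp3a16, Cyp3a11 and Cyp3a41b were 72.8% to 91.7% identical, each with AAAGTCC, and of these only Cyp3a11 held AGGTCA. The Cyp3a59 and Cyp3a25 windows were the most alike of all pairs, 94.8%, while the fasted ratios of the genes were -1.20 and -0.44. AGGTCA was in 14% of 32536 promoter windows of that length and in 15 of the 48 members that have a promoter entry, and AAAGTCC was in 3.6% of windows and in 11 of those 48. Another 4 motifs were searched on both strands and are not in capitals. TGAACT, a further nuclear receptor half-site, was in the Cyp3a11 and Cyp3a41b windows, in 3 of the 48 members and in 11.8% of all windows. The everted repeat TGAACTNNNNNNAGGTCA was in none of the windows. TGACGT, a half-site of the cyclic AMP response element, was in 0 of 7 Cyp3a windows, 0 of 48 members and 6.5% of all windows. GCGTG, the core of AhR sites, was in 0 of 7 Cyp3a windows, 8 of 48 members and 28.3% of all windows. Family members share sequence by descent, so these counts describe the windows and show no binding.

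Cyp3a members also differed in how fasting changed them. In KO liver 3 of 7 were at least 2-fold lower in the fasted than in the fed pool, Cyp3a41b (-1.39), Cyp3a11 (-1.38) and Cyp3a16 (-1.17), whereas 0 of 7 passed 2-fold in WT liver. Their subfamily median was -0.90 in KO and -0.14 in WT liver. These KO calls held in 8 of 9 alternatives, the exception being no normalization between arrays. The share of measured genes at least 2-fold lower was 2.09% in KO and 1.92% in WT liver. In WT liver Cyp3a11 was at -0.21, Cyp3a16 at -0.19 and Cyp3a41b at -0.34. Cyp3a59 was at -0.90 in KO and -0.14 in WT liver, and Cyp3a13 at 0.72 in KO and 0.66 in WT liver.

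The fasted minus the fed log2 ratio of KO over WT gives the size of that difference. Over the members 2 of 44 were at least 2-fold lower by it and 0 higher, where 1.38% of 11287 genes were 2-fold apart, 0.611% lower and 0.771% higher. These were Cyp3a11 at -1.18 ± 0.31 and Cyp3a41b at -1.05 ± 0.30. Cyp3a16 was at -0.98 ± 0.31 and Cyp3a59 at -0.76 ± 0.31, while Cyp3a25 (-0.37), Cyp3a57 (-0.28) and Cyp3a13 (0.06) were nearer to 0. The dimmer probe of Cyp3a11 was at -1.03 and that of Cyp3a59 at -1.33. The calls for Cyp3a11 and Cyp3a41b held in 8 of 8 alternatives. The fasted KO over WT calls were less stable: those of Cyp3a11, Cyp3a16 and Cyp3a59 held in 7 of 9 alternatives. With each array centred on its measured genes, none of the 4 passed 2-fold, the Cyp3a median was -0.59 in fasted and 0.20 in fed liver, and 6 of 7 genes lay below the median of all genes in fasted liver. None of the 4 passed 2-fold with arrays centred on all spots either, where the median of all genes was 0.57 and the Cyp3a median -0.02 in fasted liver; relative to the median of all genes, genotype ratios are the same under both centrings.

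The Cyp2c subfamily, which holds epoxygenases of arachidonic acid and oxidases of many drugs, had 11 measured genes of 13. Only Cyp2c37 fell by at least 2-fold in KO against WT fasted liver. Its brightest probe read 11.91 in KO fasted and 12.96 in WT fasted liver, and 12.15 in KO fed and 12.58 in WT fed liver, at ratios of -1.04 ± 0.22 and -0.43 ± 0.21. The other Cyp2c37 probe was at -0.10 in fasted and -0.10 in fed liver, so the probes of this CAR-inducible gene disagreed. The call held in 4 of 9 alternatives.

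Cyp2c39, a retinoic acid hydroxylase in mice, had the highest KO over WT ratio of the members in fasted liver. Its signal was 11.46 in KO fasted and 10.69 in WT fasted liver, and 9.90 in KO fed and 10.12 in WT fed liver. The genotype ratio was 0.77 ± 0.22 in fasted and -0.22 ± 0.21 in fed liver, and the difference between them, 0.99 ± 0.30, lay just short of 2-fold. Cyp2c39 rose with fasting in KO liver by 2.96-fold (1.57) and was 0.57 higher in WT liver. By brightest probes it was the only member to rise by at least 2-fold with fasting in KO liver, where 2.6% of measured genes did. Dimmer probes of Cyp2c54 (1.5 and 1.13) and Cyp2e1 (1.27) passed 2-fold there too. Cyp2c38 is the member next after Cyp2c39 along chromosome 19. Its dimmer probe was higher in KO than in WT fasted liver, at 0.97, while the brighter one was at -0.18.

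Cyp2c70, the mouse enzyme that makes muricholic acids, had the largest fasting difference of any member in both genotypes with the normalization used here. In KO liver the dim Cyp2c55 had the larger one under other settings, among them the scanner software's own processed signals. The signal of Cyp2c70 was 11.69 in KO fasted and 11.17 in WT fasted liver, and 14.63 in KO fed and 14.75 in WT fed liver. Both fasted pools of Cyp2c70 lay below both fed pools, with 1 pool per genotype in each feeding state and the states on different arrays. Its log2 difference of fasted over fed was -2.94 in KO liver, a 7.68-fold fall, and -3.58 in WT liver, an 11.9-fold fall. Between genotypes it was at 0.52 ± 0.21 in fasted and -0.12 ± 0.20 in fed liver.

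Cyp2c55, known for induction through CAR and PXR, showed the same pattern. It read 6.19 in KO fasted and 6.47 in WT fasted liver, close to the background, and 8.88 in KO fed and 8.34 in WT fed liver. Its fasting difference was -2.69 in KO liver, a 6.47-fold fall, and -1.87 in WT liver, a 3.65-fold fall. Its fed ratio of KO over WT, 0.54 ± 0.21, was the highest of the members, and its fasted ratio was -0.29 ± 0.34. The scanner software's own processed signals, which lack the offset added here to dim spots, gave -4.998 in KO liver and -3.41 in WT liver.

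The other Cyp2c genes stayed under 2-fold in every comparison by their brightest probes. Cyp2c29 read 13.79 in KO fasted and 14.00 in WT fasted liver, and 14.11 in KO fed and 14.37 in WT fed liver. Cyp2c50 read 14.18 in KO fasted and 14.45 in WT fasted liver, and 14.08 in KO fed and 14.39 in WT fed liver. Cyp2c54 read 14.33 in KO fasted and 14.47 in WT fasted liver, and 13.93 in KO fed and 14.33 in WT fed liver. These CAR- and PXR-inducible genes therefore differed little between pools, although the dimmer Cyp2c54 probes showed fasting differences of 1.5 and 1.13 in KO and 1.02 and 0.98 in WT liver. Cyp2c23, an epoxygenase of arachidonic acid, read 12.48 in KO fasted and 12.68 in WT fasted liver, and 12.78 in KO fed and 13.22 in WT fed liver. Cyp2c68 had the lowest fed ratio of the members, -0.46 ± 0.21, with signals of 12.99 in KO fasted, 13.21 in WT fasted, 12.98 in KO fed and 13.44 in WT fed liver. In fed liver 10 of 11 Cyp2c genes had ratios below 0 (median -0.31), where 46.9% of all genes did. That direction did not hold: with arrays centred on the measured genes 7 of 11 were above 0 (median 0.06).

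The Cyp2d subfamily, the mouse counterparts of the human debrisoquine hydroxylase, had 10 of 10 genes measured. None was 2-fold apart between genotypes, with medians of -0.13 in fasted and 0.06 in fed liver, or 0.27 in fasted and 0.46 in fed liver with arrays centred on the measured genes. Fasted pools had the higher signal for 8 of 10 genes in KO and 9 of 10 in WT liver, where 51.7% and 51.4% of measured genes did, with medians of 0.36 and 0.30. Cyp2d22 rose by 2.13-fold in WT liver (1.09) and was 0.86 higher in KO liver, from signals of 12.41 in KO fasted and 12.55 in WT fasted liver and of 11.56 in KO fed and 11.46 in WT fed liver. By brightest probes it was the only member to pass 2-fold upwards in WT liver, where 2.36% of genes did. The dimmer Cyp2d34 probe was at 1.13 in WT and 0.90 in KO liver, against 0.17 and 0.06 for the brightest. Dimmer probes of Cyp2c54 (1.02) and Cyp2e1 (1.5) also passed 2-fold in WT liver. Cyp2d9, the male-biased testosterone hydroxylase, read 14.86 in KO fasted and 15.04 in WT fasted liver, and 14.01 in KO fed and 14.04 in WT fed liver, with fasting differences of 0.86 in KO liver and 0.997 in WT liver, just short of 2-fold. Cyp2d12 read 14.62 in KO fasted and 14.81 in WT fasted liver, and 13.86 in KO fed and 14.01 in WT fed liver.

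Cyp2d40 went against its subfamily. It read 13.23 in KO fasted and 14.00 in WT fasted liver, and 14.90 in KO fed and 14.88 in WT fed liver, so that both fasted pools were low and KO fasted liver lowest. It fell by 1.67, or 3.18-fold, with fasting in KO liver and was at -0.87 in WT liver. Its KO over WT ratio was -0.77 ± 0.22 in fasted and 0.03 ± 0.20 in fed liver. Cyp2d40 and Cyp2d26, the next member along chromosome 15, had opposite fasting differences, with Cyp2d26 at 0.37 in KO and 0.20 in WT liver.

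**Figure D3:**
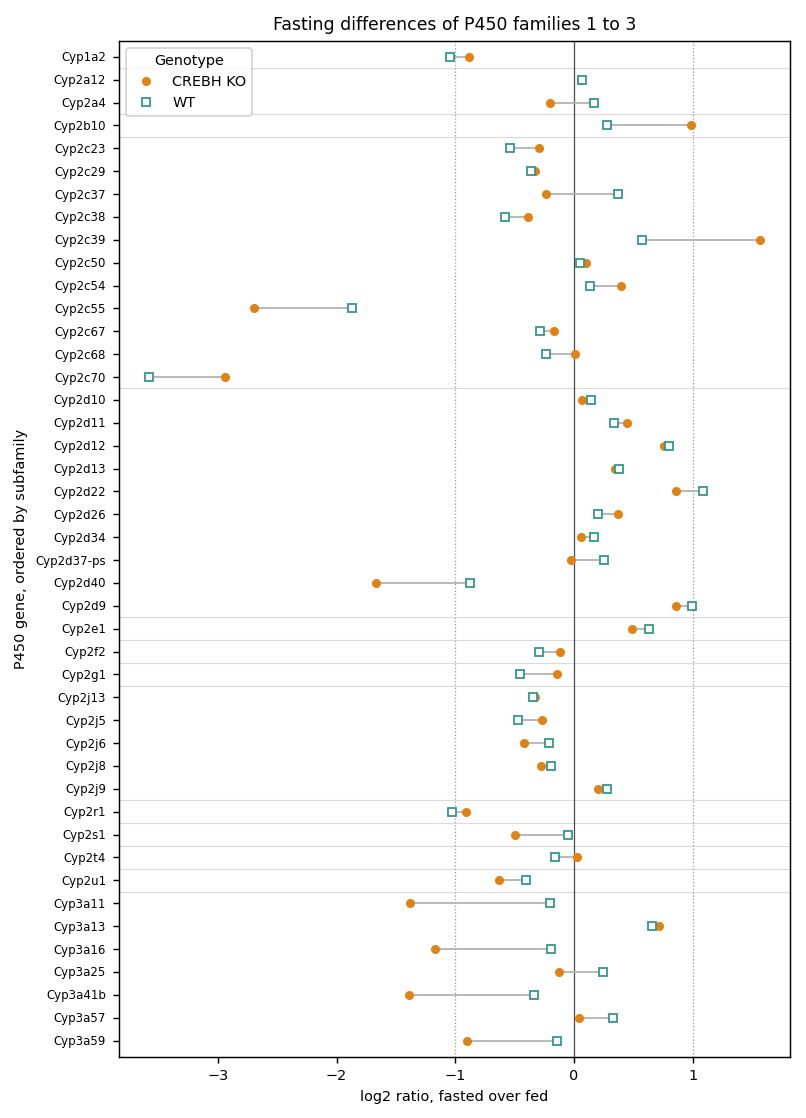
Each row is 1 of the 44 P450 genes measured in all 4 pools, ordered by subfamily, and gives the log2 ratio of fasted over fed liver in CREBH KO (orange circles) and WT (open squares), joined by a grey line. Cyp2c70 and Cyp2c55 lie far to the left in both genotypes, most Cyp2d genes lie right of 0, and long grey lines mark Cyp3a11, Cyp3a41b, Cyp3a16 and Cyp2c39.

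By brightest probes only Cyp2c70 and Cyp2c55, 2 of 44 members, were at least 2-fold apart with fasting in both genotypes. The share of all measured genes apart in both was not counted, so no baseline stands beside this number. In KO liver 1 of 44 members was at least 2-fold higher and 6 lower in the fasted pool, where 4.68% of measured genes were 2-fold apart. In WT liver 1 was higher and 4 lower, where 4.28% of genes were 2-fold apart. The sign was the same in KO and WT for 38 of 44 members, against 78.6% of 11287 genes. Fed and fasted signals of a genotype come from different arrays.

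Among the Ahr-controlled genes, Cyp1a2, a caffeine and arylamine oxidase, was measured. It read 10.48 in KO fasted and 10.25 in WT fasted liver, and 11.37 in KO fed and 11.29 in WT fed liver. Both fasted pools were lower than both fed pools, by 0.88 in KO liver, under 2-fold, and by 1.04 in WT liver, 2.06-fold. Cyp1b1 was at -0.04 ± 0.39 for KO over WT in fasted liver, and Cyp1a1 gave no value.

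Cyp2r1, the vitamin D hydroxylase, had a pattern close to that of Cyp1a2. It read 9.36 in KO fasted and 9.13 in WT fasted liver, and 10.27 in KO fed and 10.15 in WT fed liver. It was 0.91 lower with fasting in KO liver and fell by 1.03, or 2.04-fold, in WT liver, where its other probe was at -1.29. The WT calls of Cyp1a2 and Cyp2r1 held in 6 of 9 alternatives each.

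Cyp2e1, which oxidises ethanol and ketone bodies, had higher signals in KO than in WT liver on both arrays, at 0.33 ± 0.20 in fasted and 0.47 ± 0.21 in fed liver. The signals were 17.36 in KO fasted and 17.03 in WT fasted liver, and 16.87 in KO fed and 16.40 in WT fed liver. Fasting differences were 0.49 in KO and 0.63 in WT liver, and by its dimmer probe 1.27 in KO and 1.5 in WT liver.

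Cyp2b10, the classical target of CAR, was the only measured Cyp2b gene of 5. It read 8.45 in KO fasted and 8.20 in WT fasted liver, and 7.47 in KO fed and 7.92 in WT fed liver. The order of the genotypes was thus opposite on the arrays, with ratios of 0.25 ± 0.21 and -0.46 ± 0.22 and a difference of 0.71 ± 0.30. With fasting it was 0.98 higher in KO liver, just short of 2-fold, and 0.28 higher in WT liver. Cyp2b9, a female-biased form, was at least 1.35-fold higher in KO fasted than in WT fasted liver, and Cyp2a22 at least 1.47-fold. These are bounds, the bright pool's signal over the higher of the dim pool's own signal and the lowest signal well above background in that channel, and they are open to dye bias.

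Cyp2a12, a steroid and bile acid hydroxylase, was among the steadiest members, with ratios of 0.03 in fasted and 0.04 in fed liver and fasting differences of 0.06 in KO and 0.07 in WT liver. Cyp2a4, a steroid hydroxylase with a near-identical paralog in Cyp2a5, read 14.11 in KO fasted and 14.19 in WT fasted liver, and 14.31 in KO fed and 14.02 in WT fed liver. The fatty acid epoxygenases of the Cyp2j subfamily had 5 of 6 genes measured and none 2-fold apart, with median genotype ratios of -0.15 in fasted and -0.08 in fed liver. Cyp2j5 read 7.91 in KO fasted and 7.84 in WT fasted liver, and 8.18 in KO fed and 8.32 in WT fed liver. Cyp2j6 was at -0.20 in fasted and 0.00 in fed liver, and Cyp2j9 at -0.15 and -0.08. Cyp2f2, which activates naphthalene in mice, was at -0.06 in fasted and -0.23 in fed liver.

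Dim members were close to the background and carry larger errors. Cyp2u1, a fatty acid hydroxylase, read 6.51 in KO fasted and 6.53 in WT fasted liver, and 7.14 in KO fed and 6.93 in WT fed liver. Cyp2s1 read 6.14 in KO fasted and 6.40 in WT fasted liver, and 6.64 in KO fed and 6.46 in WT fed liver. Cyp2g1, known from olfactory tissue, was at -0.02 ± 0.31 in fasted and -0.32 ± 0.28 in fed liver, and Cyp2t4 at 0.06 ± 0.28 and -0.12 ± 0.32.

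Receptors that control these genes were set beside them. None of 16 measured receptors and partners was 2-fold apart between genotypes, with medians of -0.20 in fasted and -0.04 in fed liver, or -0.02 in fasted and 0.16 in fed liver with arrays centred on the measured genes. Nr1i2 (PXR) read 10.53 in KO fasted and 11.15 in WT fasted liver, and 10.53 in KO fed and 10.54 in WT fed liver, so the WT fasted pool alone was high. Its ratio was -0.62 ± 0.21 in fasted and -0.02 ± 0.20 in fed liver. Ppara, the fasting-activated fatty acid receptor, was at -0.74 in fasted and 0.06 in fed liver. Nr1i3 (CAR) rose with fasting in both genotypes, by 2.03 in KO and 1.55 in WT liver, and its KO over WT ratio was 0.11 in fasted and -0.37 in fed liver. Ahr was at 0.30 in fasted and -0.04 in fed liver.

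Of 5 measured genes listed as electron donors, Por read 12.62 in KO fasted and 13.28 in WT fasted liver, and 11.86 in KO fed and 11.65 in WT fed liver. The WT pool rose by 1.62 with fasting, and the KO pools were 0.76 apart. Cyb5b, on the same list, fell with fasting in both genotypes, by 1.06 in KO and 1.45 in WT liver. Whether each listed gene serves the P450s of the endoplasmic reticulum was not tested. The median KO over WT ratio of the list was 0.18 in fasted and 0.07 in fed liver, with none 2-fold apart in either. With arrays centred on the measured genes it was 0.45 in fasted and 0.50 in fed liver, again with none 2-fold apart.

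Outside the P450s, 13 further CAR and PXR targets were measured. In fasted liver 2 were at least 2-fold higher and 1 lower in KO than in WT. Of all measured genes 0.359% were higher and 0.432% lower there. The median of the 13 was -0.14, or 0.11 with arrays centred on the measured genes. Slco1a4, a bile acid and drug uptake carrier, fell to 7.74 in KO fasted liver, against 9.13 in WT fasted liver, and read 8.58 in KO fed and 8.28 in WT fed liver. Aldh1a1, a retinal dehydrogenase, was 1.42 higher and Gadd45b, a stress gene under CAR, 1.01 higher in KO than in WT fasted liver. In fed liver none of the 13 passed 2-fold and the median was 0.05, whereas with arrays centred on the measured genes 1 passed, Gstm2 at 1.18, and the median was 0.46. Gstm2, a glutathione transferase gene named after its values were seen, was at 0.79 in fed liver with loess. Of 5 measured Ahr battery genes outside the P450s none was 2-fold apart, with medians of 0.06 in fasted and -0.07 in fed liver.

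**Figure D4:**
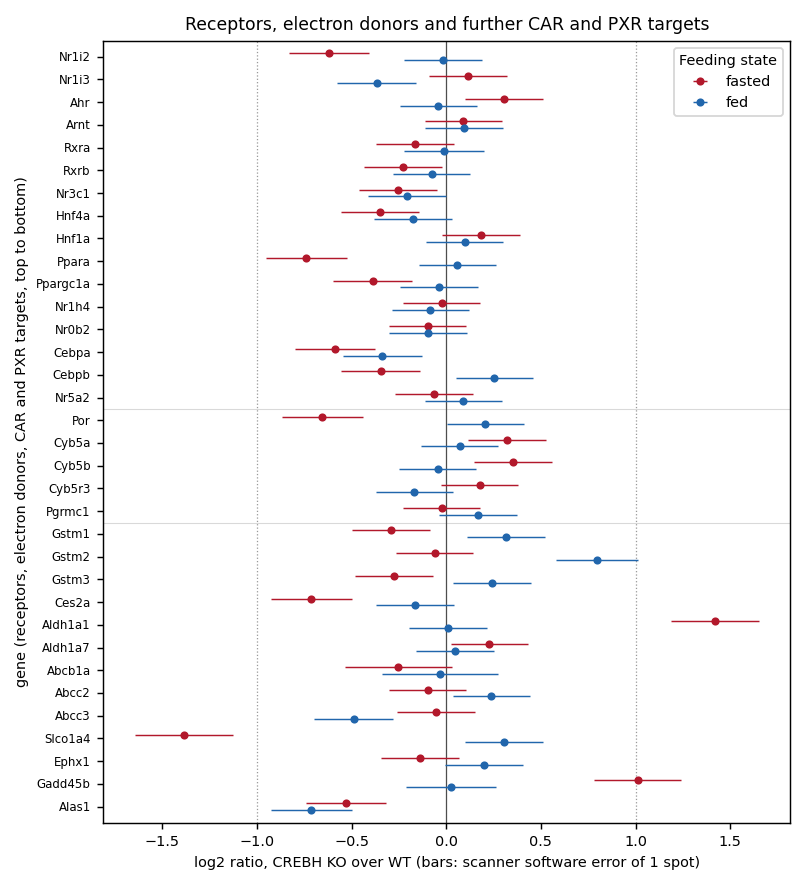
Rows give receptors and partners, genes listed as electron donors, and CAR and PXR targets outside the P450s. Points give the log2 ratio of CREBH KO over WT in fasted (red) and fed (blue) liver, with the scanner software's error of 1 spot as bars. Dotted lines mark 2-fold, passed by Aldh1a1, Gadd45b and Slco1a4 in fasted liver; Nr1i2, Ppara and Por lie between -0.74 and -0.62 in fasted and between -0.02 and 0.21 in fed liver.

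The other P450 families of the array had calls of both directions. On the fasted array 2 of 25 measured genes of the other families were higher and 0 lower in KO liver. On the fed array 1 of 26 was higher and 4 lower. Of all measured genes 0.791% were 2-fold apart on the fasted and 0.554% on the fed array. With fasting 6 of 25 were higher and 3 lower in KO liver, and 6 of 26 were higher and 2 lower in WT liver. The shares of all measured genes apart with fasting were 4.68% in KO and 4.28% in WT liver. Whether they differ from families 1 to 3 was not tested.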

How the data were processed

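Liver RNA of 4 pools was measured on 2 arrays of 2 colours each, on 1 slide read in 1 scan. The authors deposited spot and background intensity values per channel (medians over pixels) as read by Agilent Feature Extraction 10.10.1.1, per the file headers, and its processed intensity values, which were background-subtracted and dye-normalized. The log10 ratio of Cy5 over Cy3 and its error, the p-value of that ratio (error model of 1 spot, not used for calls) and the flag score that marks spots as well above background, outlying or saturated are deposited as the software gave them. The authors' value table of log2 ratios differed from these log ratios by at most 0.005. No source used here says whether it was centred further, and its columns have a median of 0.

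Median signals were corrected with normexp (offset 50) and loess within arrays and Aquantile between arrays in limma 3.58.1 under R 4.3.3. The fits used the whole array rather than the P450 probes alone. Normexp and loess were tested by multiplying the Cy5 signals of sampled probes by known folds. That test did not cover Aquantile. The offset pulls the ratios of dim genes nearer to 0. Control spots (3671 per array) and outlier spots (197 fasted, 216 fed) had weight 0 in loess and were left out of the probe values. Normexp and Aquantile used all spots. No gene spot was saturated. Probes were named through RefSeq accessions in the GRCm38.p6 gene table (26762 of 55681 probes); the array grid names mm9, so no probe or spot was placed by that table, and gene order and promoter windows are those of GRCm38.p6. The brightest probe stood for a gene. A gene counted as measured where at least 50% of its spots were well above background in each channel compared. Members, lists and roles were chosen with earlier results of these data known. Named were members 2-fold apart in any comparison, the 5 highest and lowest per comparison, members with a listed role, and up to 3 genes per list besides Por, Nr1i2, Nr1i3 and Ahr. Alternatives covered normalization, background correction, filter on dim probes, choice of probe, rule of size and the authors' ratios.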

Additional observations from a re-analysis of the deposited data

Results flagged for a closer look

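For Cyp3a11 and Cyp3a41b the KO over WT ratio had opposite signs in the feeding states, below 0 in fasted and above 0 in fed liver, with 1 pool per group. The fasted minus fed log2 ratio was -1.18 for Cyp3a11 and -1.05 for Cyp3a41b. Whether the genotype ratio differs between feeding states was not tested, since no pool was replicated. The fed ratios, 0.13 for Cyp3a11 and 0.08 for Cyp3a41b, lay within the scanner error of 1 spot, and the dimmer Cyp3a11 probe was at -0.16 in fed liver.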

How the results depend on the processing

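No paired analysis was possible because each group was 1 pool and the pools share no replicate number that the labels give. Counts of members at least 2-fold apart and medians over members were recomputed under 8 or 9 alternatives, 10 with the rule of size. Of the resulting values 71 stayed the same and 22 moved. A median stayed the same if it shifted by less than the median SD between spots of a probe. A count stayed the same if it was within 1.5 times the main count. Centring on all spots of an array, which shifted the median of all genes by 0.57 in fasted and 0.78 in fed liver, put 8 members apart between genotypes in fasted liver (median 0.68) and 20 in fed liver (median 0.96), all higher in KO, and 6 by the difference of ratios (median -0.25). With arrays centred on the measured genes, 0 were apart in fasted liver (median 0.11), 1 in fed liver (median 0.19), 3 with fasting in WT liver and 5 by the difference of ratios. Scanner-processed signals gave 12 with fasting in KO liver, 8 in WT liver and 6 by the difference. An offset of 10 gave 4 by the difference. A rule of 1.5-fold gave 7 in fasted liver, 16 with fasting in KO liver, 10 in WT liver and 10 by the difference. Shares of all measured genes were not counted under these alternatives, so no baseline stands beside these counts of members. Without normalization between arrays the median fasting difference was 0.41 in KO and 0.46 in WT liver, where those of all genes were 0.45 and 0.46. The cause of these shifts was not tested. No named member that passed 2-fold changed sign under any alternative run. Members near the background have compressed ratios or only bounds.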

Other observations

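The liver lobule differs in P450 content between its zones and, in mice, between the sexes, and genes of those patterns outside families 1 to 3 were set beside the members. Of 10 measured pericentral genes 9 in fasted and 8 in fed liver had ratios of KO over WT above 0, with medians of 0.19 and 0.45 and none at least 2-fold apart. With arrays centred on the measured genes in place of loess 9 of 10 were above 0 on each array, and 2 passed 2-fold in fed liver. Glul, the glutamine synthetase of the innermost pericentral hepatocytes, was at 0.38 in fasted and 0.44 in fed liver, and the ornithine aminotransferase gene Oat at 0.17 and 0.85. Of 12 periportal genes 10 had ratios below 0 on each array, with medians of -0.49 in fasted and -0.24 in fed liver. Over all measured genes 47.3% in fasted and 46.9% in fed liver were below 0. But with arrays centred on the measured genes 8 of 12 periportal genes were below 0 in fasted and 2 of 12 in fed liver. Pck1, the gluconeogenic carboxykinase, was at -1.14 and the apolipoprotein gene Apoa4 at -4.31 in fasted liver, and Apoa4 was 1.68 higher in KO fed liver. The part of zonation in the P450 ratios was not tested.

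Among 7 female-biased members with a probe, Cyp2a4, Cyp2c39, Cyp3a16 and Cyp3a41b were well above background in all 4 pools, Cyp2b9 in KO fasted liver, and Cyp2b13 and Cyp3a44 in none. Of 8 female-biased genes outside these families 2 were measured in fasted liver and 0 in fed liver, among them Atp6v0d2 at 0.07 in fasted liver. Male-biased genes outside these families had a median KO over WT ratio of -0.08 over 9 genes in fasted and 0.32 over 10 genes in fed liver, or 0.35 in fasted and 0.68 in fed liver with arrays centred on the measured genes. Hsd3b5, a steroid dehydrogenase, fell with fasting by 3.07 in KO and 3.30 in WT liver, and Cyp7b1, an oxysterol hydroxylase, was 1.1 higher in KO than in WT fed liver. No source used here gives the sex of the mice.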
